A study of Mus musculus with 16 samples.

Results

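Collagen genes were followed through 4 cell types of the mouse thoracic aorta: vascular smooth muscle cells (VSMCs), fibroblasts, endothelium and leukocytes. The members were all genes named Col, a number, a and a number, which picked out 44 of the 31055 features in the single-cell count matrices by name alone. The data came from 16 droplet libraries of the aortic root to the arch, each cell's RNA molecules being counted by unique molecular identifiers (UMIs) at the 3′ end. Mice were of the strain 129S6/SvEv, and tamoxifen was given at 6 weeks of age to all of them. In Smad3SmKO mice both Smad3 alleles were floxed and carried with Myh11-CreER, a Cre active in smooth muscle, while controls were Smad3+/+ with the same Cre. Smad3 is a transcription factor downstream of TGF-beta receptors. Tissue was taken 10 weeks after deletion (2 Smad3+/+ and 2 Smad3SmKO libraries) or 18 weeks after deletion (5 Smad3+/+ and 7 Smad3SmKO libraries). Libraries carried labels for batches 1 to 6, for enzyme digestion of 30 or 60 min and for the presence of Myh11-GFP, a smooth muscle tracer. All 10-week libraries were in batch 4 and digested for 60 min, and batch 5 held Smad3SmKO libraries only. At 10 weeks the tracer was on the label of both Smad3+/+ libraries and of no Smad3SmKO library. At 18 weeks it was on the labels of all libraries digested for 60 min and of no other. The study's methods describe cell suspensions made per mouse, and libraries were taken as mice, though the labels do not name an animal for each.

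Collagens are built from 3 alpha chains wound into a triple helix. Types I, III and V form the fibrils that give the aortic wall its tensile strength, and type IV forms the sheet of the basement membrane around each smooth muscle cell and under the endothelium. Type VI makes beaded filaments, types XII, XIV and XVI attach to fibril surfaces (FACITs, fibril-associated collagens with interrupted helices), and types XV and XVIII are multiplexins, proteoglycan-like collagens that sit next to basement membranes. Transmembrane collagens such as XIII and XXIII stay anchored in the cell surface. Most collagen of the vessel's outer coat, the adventitia, is made by fibroblasts, and TGF-beta signalling is a well-known inducer of fibrillar collagen genes.

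The 6 type IV chains are encoded as 3 head-to-head pairs, whose partners start next to each other on opposite strands. In the GRCm38.p6 annotation, Col4a1 (chr8:11198423-11312826, minus strand) and Col4a2 (chr8:11312805-11449287, plus strand) overlap by 22 bases at their starts. Col4a4 (chr1:82448423-82586849, minus strand) and Col4a3 (chr1:82586921-82722059, plus strand) are 71 bases apart. Col4a6 (chrX:141165403-141474076, minus strand) and Col4a5 (chrX:141475385-141689234, plus strand) are 1308 bases apart. The first 2 sequences are what lies between or is shared by the starts of such a pair, read on the plus strand, and the next 2 are the bases just upstream of the annotated starts of Col4a5 and Col4a6, each on its gene's strand. They are shown because each pair's 2 genes were then measured in the same cells. The bases upstream of Col18a1 and Col3a1 are added too. Of the members tested, Col18a1 had the largest difference in favour of VSMCs over fibroblasts, and Col3a1 is a leading fibroblast collagen. Capitals mark, on either strand, TATAAA (the TATA box), GGGCGG (the GC box, a site type of Sp1), CCAAT (the box named after its letters) and CAGAC (letters known from Smad-bound sites). A CArG box, the site type of serum response factor in smooth muscle genes, was searched too. No searched letters overlap in the lines shown. Col18a1 has another listed promoter, chr10:77113656-77113955 on the minus strand, which is not shown. It held 1 CAGAC and none of the other letters searched. Motif matches are descriptions of letters. All sequences are RefSeq GRCm38.p6, trimmed to end before any annotated exon except in the overlap.
Col4a1 and Col4a2 overlap, chr8:11312805-11312826: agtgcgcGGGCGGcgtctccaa
Col4a4 to Col4a3 gap, chr1:82586850-82586920: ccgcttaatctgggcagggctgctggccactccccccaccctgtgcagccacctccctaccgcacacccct
Col4a5 upstream, chrX:141475169-141475384, plus strand: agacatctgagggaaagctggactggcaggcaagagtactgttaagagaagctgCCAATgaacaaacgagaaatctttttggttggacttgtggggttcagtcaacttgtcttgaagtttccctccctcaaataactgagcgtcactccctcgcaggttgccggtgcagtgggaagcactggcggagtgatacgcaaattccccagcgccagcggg
Col4a6 upstream, chrX:141474077-141474326, minus strand: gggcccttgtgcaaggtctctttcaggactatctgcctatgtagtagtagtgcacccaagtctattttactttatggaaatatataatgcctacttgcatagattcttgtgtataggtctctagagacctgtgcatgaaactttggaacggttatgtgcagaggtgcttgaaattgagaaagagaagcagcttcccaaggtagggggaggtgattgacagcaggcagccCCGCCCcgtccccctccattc
Col18a1 upstream, chr10:77166549-77166780, minus strand: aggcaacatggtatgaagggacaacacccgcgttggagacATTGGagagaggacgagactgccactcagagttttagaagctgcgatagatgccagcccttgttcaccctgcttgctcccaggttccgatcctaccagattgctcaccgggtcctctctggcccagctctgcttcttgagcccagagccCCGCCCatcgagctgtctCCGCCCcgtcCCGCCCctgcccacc
Col3a1 upstream, chr1:45311288-45311537, plus strand: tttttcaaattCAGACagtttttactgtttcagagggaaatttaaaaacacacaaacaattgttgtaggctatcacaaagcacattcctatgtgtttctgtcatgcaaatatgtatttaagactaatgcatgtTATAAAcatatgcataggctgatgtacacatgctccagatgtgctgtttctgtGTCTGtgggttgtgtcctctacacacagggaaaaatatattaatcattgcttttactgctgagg
Of the 44 members, 35 matched an entry of the promoter table, with 38 promoters between them. GGGCGG stood within 250 bases upstream in 22 of these 38 promoters and in 32.7% of all 32851 promoters. TATAAA stood in 5 of the 38 and in 12.4% of all, CCAAT in 13 and 33.8%, CAGAC in 17 and 42.2%, and a CArG box in 1 and 1.47%. The Col4a4 to Col4a3 gap held none of the letters searched.

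The libraries held 12539539 to 52843031 UMIs each, and 50858 of 66349 deposited barcodes were kept by the study's limits on genes, UMIs and mitochondrial share. VSMCs were cells with at least 5 UMIs of Myh11 (smooth muscle myosin) and more of it than of Dcn (decorin). Fibroblasts were the reverse, endothelium had at least 2 UMIs of Pecam1 and Cdh5 together, and leukocytes at least 2 of Ptprc and Tyrobp. These rules took 8950 VSMCs, 36066 fibroblasts, 3303 endothelial cells and 3357 leukocytes, with as few as 22, 196, 31 and 13 cells in 1 library. Of the endothelial cells, 62.9% also met another rule, mostly the fibroblast one, against 3.37% of VSMCs, 5.86% of fibroblasts and 12.2% of leukocytes. Levels in endothelium and leukocytes are therefore given for the 1226 endothelial cells and 2946 leukocytes that met 1 rule only, and tests between classes are given both ways. Pecam1, Cdh5, Myh11 and Dcn chose these cells, so their levels check nothing. Of endothelial genes outside the rules, Egfl7 averaged 1103 UMIs per 1000000 UMIs of the class (CPM) in endothelial cells of 1 rule and 319 in all endothelial cells, and Kdr, a VEGF receptor, 407 and 109. Rgs5, a marker of pericytes and smooth muscle, averaged 1295 CPM in endothelial cells of 1 rule, from 43.8 to 13387. One Smad3SmKO 18-week library (replicate 7) stood apart, with the fewest fibroblasts (196) and a summed level of 8 VSMC markers in them of 11942 CPM, against 566 to 3490 elsewhere. Smad3 UMIs do not check the labels: in VSMCs Smad3 was at 5.04 ± 0.50 CPM (SD, n = 2) in Smad3+/+ and 6.63 ± 2.05 (n = 2) in libraries labelled Smad3SmKO at 10 weeks, and at 7.44 ± 2.79 (n = 5) and 9.32 ± 4.37 (n = 7) at 18 weeks. A 3′ count can lie outside the deleted part of the gene. The study itself reported lower Smad3 RNA (qPCR, relative to Myh11) and lower Smad3 protein (immunoblot) in aortas of Smad3SmKO mice. Some libraries also carried a label for Myh11-GFP, a smooth muscle tracer, and in 4 libraries GFP UMIs went against it: both libraries labelled Smad3SmKO at 10 weeks held GFP UMIs (246 and 165) with no tracer on the label, and Smad3+/+ 18-week replicates 4 and 5 held 0 with one. Leaving these 4 out removes every 10-week Smad3SmKO library, so genotype is given without them at 18 weeks only. Smad3+/+ 18-week replicates 4 and 5 shared 3507 deposited barcode sequences, of 4801 and 7713, but only 2 among kept cells. Among kept cells of all libraries 315 barcode sequences occurred in 2 or more libraries.

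Collagens made up 1.26 ± 0.315% of all UMIs in fibroblasts (SD, n = 16 libraries), from 0.779% to 1.97%. VSMCs held 0.457 ± 0.127%, from 0.312% to 0.8005%, and the highest VSMC library overlapped the lowest fibroblast library. The share was 0.219 ± 0.0795% in endothelial cells of 1 rule and 0.0204 ± 0.0087% in leukocytes of 1 rule. The make-up of the share differed between classes, and is given for cells of 1 rule. Fibrillar chains gave 78.8% of collagen UMIs in fibroblasts and 50.8% in VSMCs. Basement membrane chains gave 6.13% in fibroblasts, 19.7% in VSMCs and 50% in endothelium, and the multiplexins 1.98%, 18.2% and 9.13%. FACITs, which gave 4.08% in fibroblasts and 3.72% in VSMCs, gave 30.3% in leukocytes. No test was run on these shares.

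**Figure D1:**
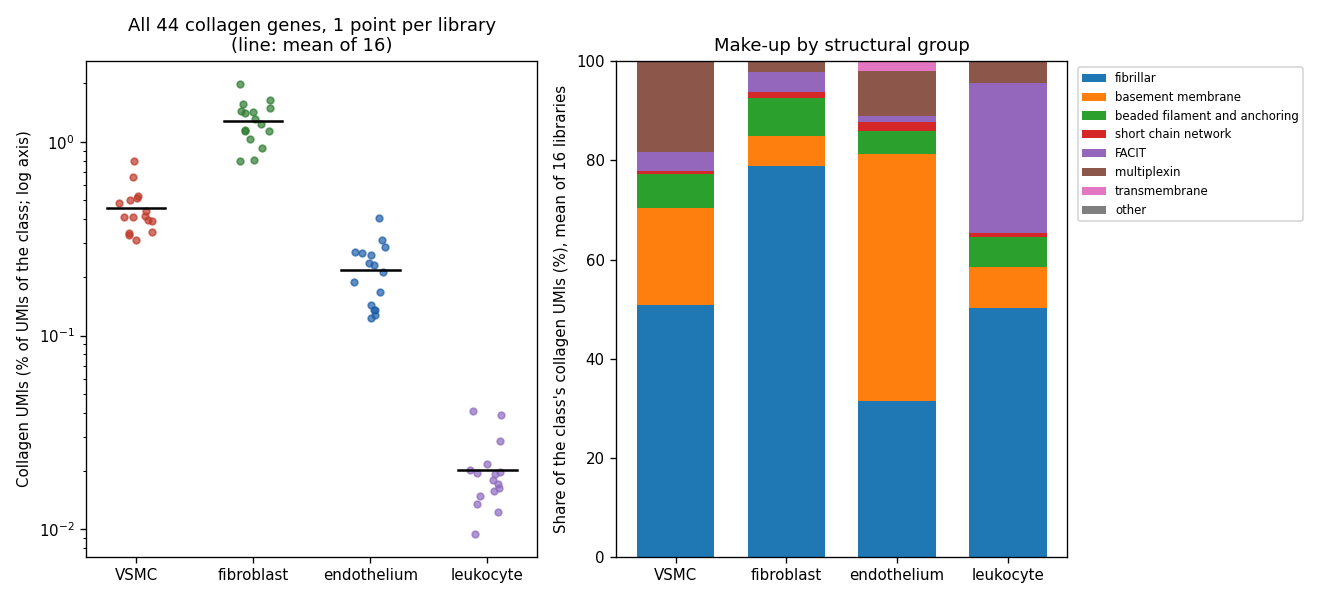
Left, the share of a class's UMIs from all 44 collagen genes, in percent on a log axis, with 1 point per library and a line at the mean of 16, for cells that met 1 class rule only. Right, the make-up of that share by structural group, in percent of collagen UMIs, with fibrillar chains at 78.8% in fibroblasts and basement membrane chains at 50% in endothelium.

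Levels below, in CPM per library, are molecules counted at the 3′ end and are not divided by gene length. Fold changes come from an edgeR quasi-likelihood fit with a term for each library, all 4 classes in 1 fit and trimmed-mean scaling, and are log2 ± SE. A member was called at a Benjamini-Hochberg adjusted p under 0.05 over all 12059 genes tested. The fibroblast sums serve 3 comparisons and the VSMC sums 2, so these share data. Of the 44 members, 27 reached a mean of 5 CPM in at least 1 class, with every cell of each rule, the nearest above that level being Col8a2 (6.74 in fibroblasts). Of these 27, counted on cells of 1 rule, 21 were highest in fibroblasts, 3 in VSMCs (Col4a5, Col4a6 and Col18a1) and 3 in endothelium (Col4a1, Col4a2 and Col23a1).

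In VSMCs against fibroblasts, 28 members could be tested. Of them 4 were higher in VSMCs, where 33% of all genes tested were higher, and 23 were lower, where 37.5% of all genes were lower. The members' median difference was −1.74 against −0.04 over all genes. The 4 higher were Col18a1, Col4a2, Col4a5 and Col4a6, and 3 of them are basement membrane chains. Col4a1 was not called (0.30 ± 0.17, adjusted p = 0.11, edgeR). All 8 fibrillar members tested, all 5 of the beaded and anchoring group, all 3 FACITs, both short chain network members and both transmembrane members were lower in VSMCs.

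The fibrillar chains were the bulk of fibroblast collagen RNA. Col3a1, the single chain of type III, was at 2103, 3744 and 6340 CPM (lowest, median and highest of 16 libraries) in fibroblasts and at 423, 810 and 1576 in VSMCs. Col1a1, the major chain of type I, was at 1521, 3022 and 5513 in fibroblasts and at 313, 534 and 1091 in VSMCs. For both genes the classes did not overlap, and fibroblasts were higher in all 16 libraries. The differences were −2.13 ± 0.18 for Col3a1, −2.25 ± 0.18 for Col1a1 and −1.87 ± 0.17 for Col1a2, the other chain of type I, with adjusted p of 4.3e-15, 5.2e-16 and 1.8e-14 by edgeR. The minor fibril chains of type V, which start and limit fibrils, differed less for Col5a1 (−1.44 ± 0.16) and Col5a2 (−1.32 ± 0.17) than Col5a3 (−4.43 ± 0.26), whose mean was 0.831 CPM in VSMCs and 19.8 in fibroblasts. Col11a1, best known from cartilage, was at 14.3 ± 5.1 CPM in fibroblasts and 0.346 ± 1.18 in VSMCs, the widest gap in the family (−6.75 ± 0.39).

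The 2 chains of type I were not counted in a fixed ratio. Counted on cells of 1 rule, there were 0.858 ± 0.216 Col1a1 UMIs per Col1a2 UMI in VSMCs (n = 16) and 1.11 ± 0.211 in fibroblasts. The ranges, 0.59 to 1.25 and 0.863 to 1.47, overlapped across libraries, but within libraries the VSMC ratio was the lower in 16 of 16. The type I trimer of most tissues holds 2 chains of Col1a1 for each of Col1a2, but a 3′ count depends on each transcript's capture, so the ratios are compared between classes only.

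Col4a1 and Col4a2, the chains present in nearly all basement membranes, were the most abundant type IV genes in all 3 of VSMCs, fibroblasts and endothelium. In VSMCs Col4a1 was at 307, 387 and 567.9 CPM and in fibroblasts at 209, 302 and 703, with the ranges overlapping. Col4a1 was at 306, 550 and 1485 CPM in endothelial cells of 1 rule, higher than fibroblasts in 16 of 16 libraries and than VSMCs in 14. Col4a2 was at 153, 259 and 415 in VSMCs, 95.15, 126 and 281 in fibroblasts and 136, 322 and 946 in endothelial cells of 1 rule. It was higher in VSMCs than fibroblasts in 16 of 16 libraries (0.86 ± 0.15). The highest endothelial library for each chain was not replicate 7 of the Smad3SmKO 18-week group, which held only 3 such cells.

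Col4a3 and Col4a4, chains known from the kidney and lung, went the other way. Col4a3 averaged 42.3 ± 24.5 CPM in fibroblasts and 3.93 ± 1.66 in VSMCs (−3.30 ± 0.23), and Col4a4 77.9 ± 35.5 and 9.40 ± 6.08 (−3.04 ± 0.20). Both were higher in fibroblasts in 16 of 16 libraries. In endothelial cells of 1 rule they were at 4.73 ± 6.11 and 6.28 ± 8.19 CPM, with libraries at 0. Col4a5 and Col4a6, which form a network in smooth muscle basement membranes, were higher in VSMCs. Col4a5 averaged 114 ± 44.6 CPM in VSMCs and 92.4 ± 52.7 in fibroblasts, higher in 12 of 16 libraries (0.44 ± 0.15, adjusted p = 0.0069 by edgeR). Col4a6 averaged 68.3 ± 21.7 and 35.8 ± 17.1, higher in 16 of 16 (1.07 ± 0.13). In endothelial cells of 1 rule they were at 14.2 ± 11.2 and 6.23 ± 7.60 CPM, below both other classes in every library.

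The ratio of partners within a pair, counted on cells of 1 rule in every class, was not the same in all classes. Col4a1 was counted 1.60 ± 0.25 times per Col4a2 UMI in VSMCs, 2.37 ± 0.365 times in fibroblasts and 1.95 ± 0.253 times in endothelial cells of 1 rule (n = 16 each). Col4a5 was counted 1.64 ± 0.339 times per Col4a6 UMI in VSMCs and 2.56 ± 0.517 times in fibroblasts. Col4a4 was counted 2.23 ± 0.858 times per Col4a3 UMI in VSMCs (n = 12 libraries with at least 5 UMIs of the second gene) and 2.00 ± 0.363 times in fibroblasts (n = 16). In all 3 pairs the ranges of VSMCs and fibroblasts overlapped across libraries (for example 1.24 to 2.10 against 1.64 to 2.93 for Col4a1 per Col4a2). Within libraries the VSMC ratio was lower in 16 of 16 for Col4a1 per Col4a2 and in 15 of 16 for Col4a5 per Col4a6, and higher in 7 of 12 for Col4a4 per Col4a3. These ratios were not tested.

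Of the 28 members tested, the multiplexin Col18a1 had the largest difference in favour of VSMCs. Col18a1, whose C-terminal fragment is endostatin, was at 387, 648 and 1363 CPM in VSMCs and at 14.7, 25.8 and 297 in fibroblasts. It was higher in VSMCs in 16 of 16 libraries and the ranges did not overlap (4.60 ± 0.28, adjusted p = 2.7e-20, edgeR). The fibroblast value of 297 was that of Smad3SmKO 18-week replicate 7, whose fibroblast sum also carried the most VSMC markers, and all others were at 46.7 or lower. In endothelial cells of 1 rule Col18a1 was at 19.7, 52.2 and 133 CPM, and in leukocytes of 1 rule at 0, 1.43 and 31.1. Col15a1, the other multiplexin, averaged 140 ± 74.2 CPM in VSMCs and 213 ± 70.5 in fibroblasts (−0.61 ± 0.17), and 126 ± 77.2 in endothelial cells of 1 rule. Counted on cells of 1 rule, there were 5.87 ± 2.34 Col18a1 UMIs per Col15a1 UMI in VSMCs and 0.221 ± 0.314 in fibroblasts.

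**Figure D2:**
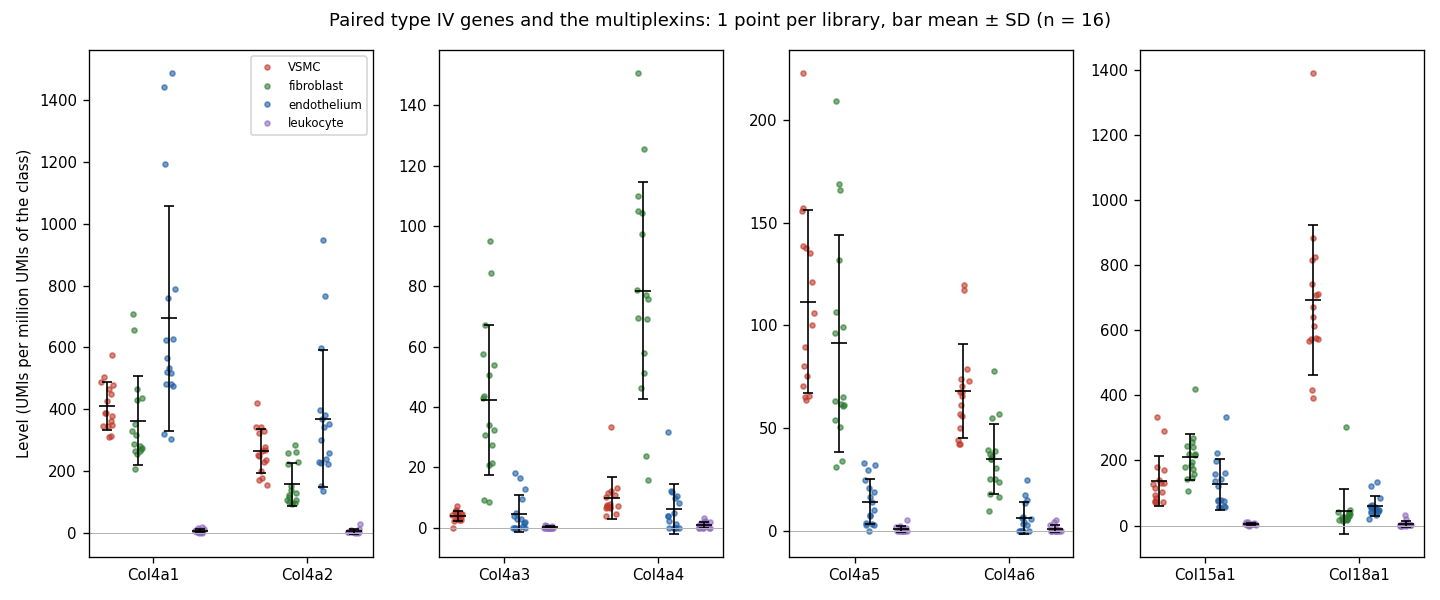
Levels in CPM (linear axes) of the 3 type IV pairs and the 2 multiplexins, with 1 point per library and a bar at the mean ± SD of 16, for cells that met 1 class rule only. Col4a3 and Col4a4 are highest in fibroblasts, Col4a5 and Col4a6 are low in endothelium and leukocytes, and Col18a1 is highest in VSMCs.

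The other groups were fibroblast-led. Col6a1, Col6a2 and Col6a3, the standard chains of type VI, averaged 418 ± 95.6, 305 ± 99.2 and 135 ± 50.5 CPM in fibroblasts and 130.5 ± 41, 115 ± 37.8 and 60 ± 26.5 in VSMCs. Their differences were −1.62 ± 0.16, −1.35 ± 0.17 and −1.18 ± 0.15. Col6a6 (30.8 ± 15.9 against 3.02 ± 3.59, −3.82 ± 0.21) and Col6a5 (−6.64 ± 0.47), which replace Col6a3 in some trimers, differed more. Fibroblast Col6a5 was at 425 in 1 Smad3+/+ library (18 weeks, replicate 5) and between 0.21 and 96.8 in the others. Col8a1, of the short chain networks, was at 55.1, 134 and 561 in fibroblasts and 2.16, 27.4 and 64 in VSMCs (−2.51 ± 0.23). Its partner Col8a2 was at 6.74 ± 1.84 and 0.251 ± 0.561 (−5.60 ± 0.32). Among FACITs, Col14a1 was at 201, 406 and 592 CPM in fibroblasts and 84.6, 140 and 228 in VSMCs (−1.41 ± 0.12), with 1 VSMC library above the lowest fibroblast library. Col16a1 was at 54, 77.1 and 108 in fibroblasts and 8.38, 12.2 and 32 in VSMCs (−2.53 ± 0.16). Col12a1 averaged 20.6 ± 16.2 and 3.69 ± 2.28 (−2.65 ± 0.20), and Col27a1, a fibrillar chain, 15.6 ± 5.39 and 7.77 ± 5.82 (−1.02 ± 0.18).

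The remaining 17 members stayed below 5 CPM in every class with every cell of each rule. Col13a1, a transmembrane collagen, was the nearest below that level, at 3.96 in endothelium by every cell of the rule. Among the others, Col10a1, Col17a1, Col24a1, Col25a1 and Col6a4 were below 1 CPM in all 4 classes. Col19a1, a FACIT singled out after its values were seen, had little RNA. It averaged 2.15 ± 1.42 CPM in VSMCs and 0.0628 ± 0.0813 in fibroblasts and was higher in VSMCs in 15 libraries and in fibroblasts in 0 (4.84 ± 0.31 when no gene is filtered out for low counts).

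**Figure D3:**
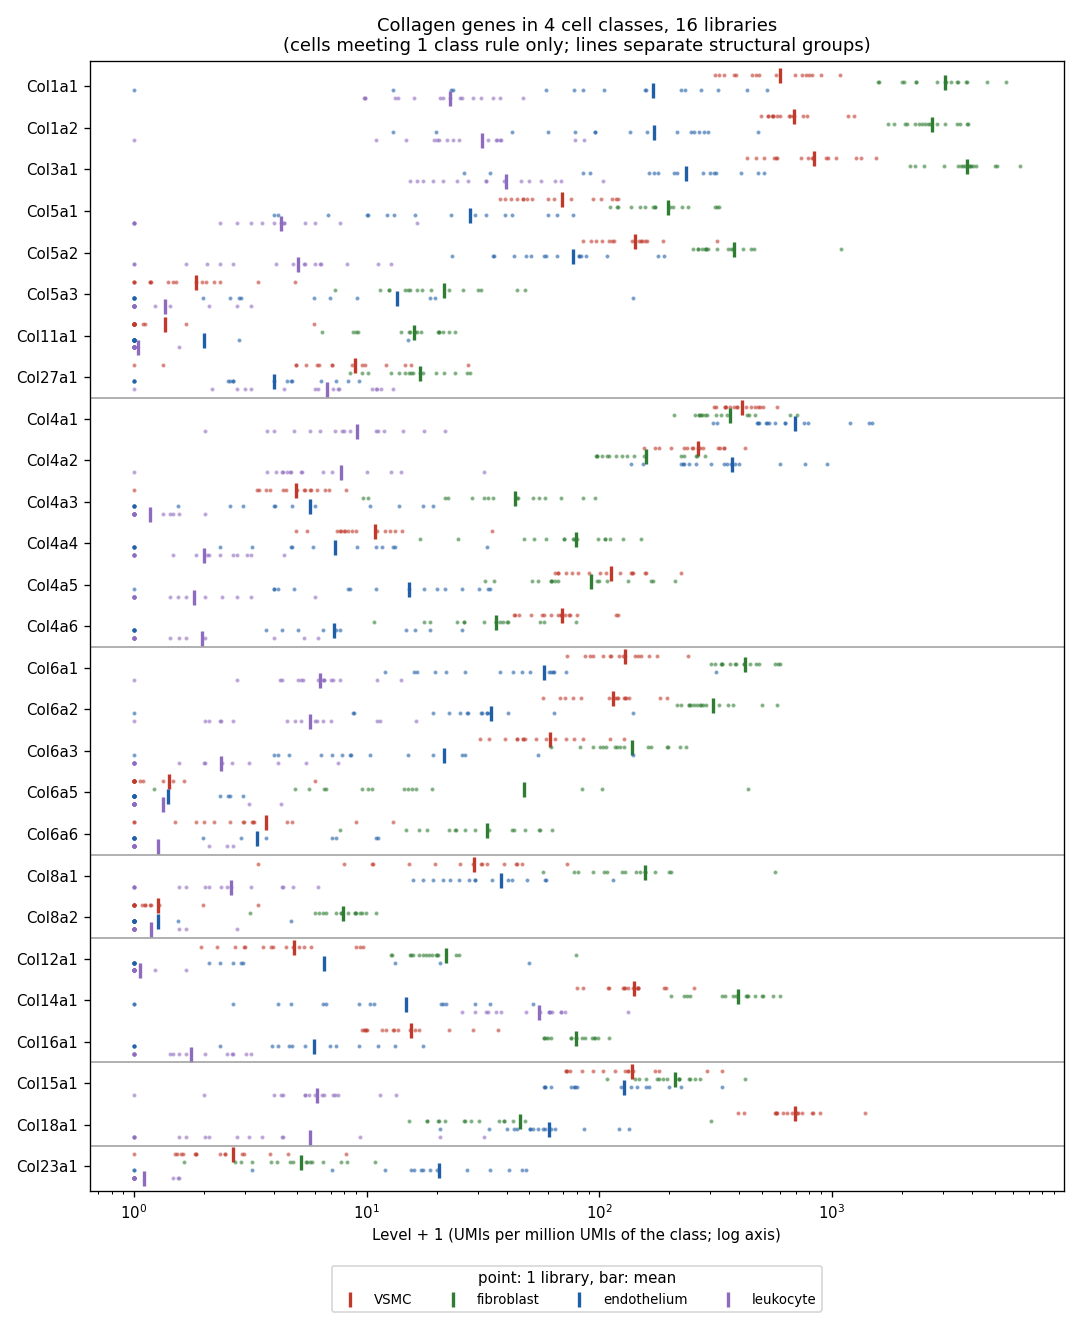
Levels plus 1, in CPM on a log axis, of the 27 collagen genes that reached 5 CPM, with 1 point per library and a bar at the mean for each class, for cells that met 1 class rule only. Lines part the structural groups; 21 of the 27 means are highest in fibroblasts, and Col18a1 is highest in VSMCs.

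Endothelium against fibroblasts depended on which cells were counted. With every cell of the endothelial rule, 28 members were tested. Col18a1 (1.40 ± 0.26) and Col23a1 (0.79 ± 0.20) were higher, where 16.9% of all genes were, and 20 members were lower, where 19.3% of all genes were. With cells of 1 rule, 26 were tested and all were called, 5 higher (27.8% of all genes) and 21 lower (33.7%). The 5 were Col4a1 (0.61 ± 0.15), Col4a2 (0.90 ± 0.14), Col18a1 (0.97 ± 0.25) and the transmembrane collagens Col13a1 (1.84 ± 0.39) and Col23a1 (2.00 ± 0.23). Col13a1 averaged 14.5 ± 17 CPM in these cells and 3.63 ± 3.46 in fibroblasts of 1 rule, and Col23a1 19.3 ± 15.2 and 4.24 ± 2.33. The fibrillar Col1a1 was at 0, 130 and 522 CPM in endothelial cells of 1 rule (−4.42 ± 0.27 against fibroblasts) and at 758, 1333 and 2251 in all cells of the rule (−1.14 ± 0.17). Leaving out cells that also met the fibroblast rule lowers fibroblast RNA by construction.

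Endothelium against VSMCs changed direction for many members with the same choice. With every cell of the rule 21 members were higher in endothelium, where 34% of all genes were, and 4 were lower (30.9%). With cells of 1 rule, 4 were higher (33.2% of all genes) and 16 lower (32.6%). The 4 higher were Col4a1 (0.37 ± 0.15, adjusted p = 0.024, edgeR), Col5a3 (1.66 ± 0.56), Col13a1 (4.83 ± 0.57) and Col23a1 (3.60 ± 0.29). Col18a1 was lower in endothelium either way (−3.21 ± 0.27 and −3.50 ± 0.25), as were Col4a5 (−0.60 ± 0.15 and −2.99 ± 0.20) and Col4a6 (−1.11 ± 0.14 and −3.72 ± 0.25). The fibrillar Col3a1 was 1.17 ± 0.18 with all cells and −1.97 ± 0.25 with cells of 1 rule. Endothelial Col5a3 rested on few UMIs, with a highest library of 138 and a median of 1.70 CPM.

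Leukocytes had the least collagen RNA. All 28 members tested were lower than in fibroblasts, where 41.9% of all genes were lower and 35.1% higher, and with cells of 1 rule all 26 tested were lower (39.3% of genes lower and 38.7% higher). In cells of 1 rule the difference was −6.79 ± 0.30 for Col1a1, −6.38 ± 0.29 for Col3a1 and −6.03 ± 0.20 for Col6a1, but −2.70 ± 0.16 for Col14a1. Col14a1 was at 24.6, 57.1 and 131.9 CPM in leukocytes of 1 rule, above Col1a1 at 8.69, 21 and 45.9. There were 1.94 Col14a1 UMIs per Col1a1 UMI in leukocytes and 0.142 in fibroblasts, and the leukocyte ratio was the higher in 16 of 16 libraries. Col27a1 (5.75 ± 3.80 CPM, −1.29 ± 0.26) had a higher ratio to Col1a1 in leukocytes in 15 of 16. Most other members' ratios to Col1a1 were above those of fibroblasts too. Pooled over libraries the leukocyte ratio was 36.2 times the fibroblast one for Col27a1 (93 UMIs), 14.5 times for Col18a1 (69 UMIs, higher in 12 of 16) and 13.7 times for Col14a1 (861 UMIs). It was 3.76 times for Col4a2, 2.69 for Col15a1 and 2.09 for Col4a1 (15 of 16 each), and 1.39 for Col1a2 and 1.28 for Col3a1. With each cell thinned to 2000 UMIs, 6.504% of these leukocytes held a Col14a1 UMI and 5.45% a Col1a1 UMI, against 43.5% and 88.6% of fibroblasts. Before thinning the shares were 17% and 12.1% of leukocytes and 70.9% and 97.2% of fibroblasts. Col18a1 gave 1.05% of thinned leukocytes and 8.14% of thinned endothelial cells against 70.9% of VSMCs and 4.42% of fibroblasts.

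Enzymes and chaperones that make and process collagen were mostly lower in VSMCs. Of a list of 31 such genes, 28 were tested in VSMCs against fibroblasts, and 1 was higher and 24 were lower (median −1.02, all genes −0.04), where 33% of all genes were higher and 37.5% lower. The 1 higher was P4ha2, a prolyl hydroxylase (0.57), and Pcolce, the enhancer of procollagen C-proteinase, had a difference of −4.45. Of 10 collagen receptor genes 8 were tested, and 3 were higher in VSMCs: Itga1 (2.07), Itgb1 (2.00) and Ddr1 (1.07). The other 5 were lower, beside the same shares of all genes.

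Within VSMCs, cells with at least 2 UMIs of Notch3 and Enpep together, and more of these than of Ptprz1 and Tes, were set against cells of the reverse kind. There were 500 and 4594 such cells in 14 libraries with at least 10 of each, and the fit over 5719 genes tested 16 members. In the Notch3 and Enpep cells 4 members were higher, where 13.2% of all genes were, and 9 lower, where 12.6% of all genes were. Col8a1 was at 8.16, 65.1 and 153 CPM in them and at 0, 8.24 and 28.2 in Ptprz1 and Tes cells, higher in 14 of 14 libraries (2.92 ± 0.23, adjusted p = 5.1e-10, edgeR). Col14a1 (0.60 ± 0.15), Col4a1 (0.35 ± 0.06, higher in 13 of 14) and Col4a2 (0.23 ± 0.07) were the others. Col15a1 was at 0, 30.8 and 229 in Notch3 and Enpep cells and at 86.3, 175 and 322.5 in the other kind, lower in 14 of 14 libraries (−1.56 ± 0.19). Col4a6 (−0.97 ± 0.17), Col1a2 (−0.73 ± 0.10), Col6a2 (−0.69 ± 0.14), Col1a1 (−0.59 ± 0.14), Col4a5 (−0.48 ± 0.11), Col6a1 (−0.43 ± 0.13), Col18a1 (−0.39 ± 0.08) and Col5a2 (−0.38 ± 0.12) were lower too. Col3a1, Col5a1 and Col6a3 were not called. With no filter on low counts 20 members were called, which then included Col3a1 (−0.37 ± 0.08, adjusted p = 4.0e-05, edgeR) and Col5a1 (−0.41 ± 0.12, adjusted p = 0.0061, edgeR) but no longer Col4a2 (0.13 ± 0.08, adjusted p = 0.38, edgeR). The share of all genes called without the filter is not given here. The summed level of 4 pericyte markers was 715 CPM (31.3 to 2745) in Notch3 and Enpep cells and 357 (137 to 735) in the others, and its part in these differences was not tested. Only Smad3SmKO 18-week replicates 5 (71 and 868 cells) and 7 (59 and 222), both of batch 5, held at least 50 cells of each kind. With these alone 1 member, Col8a1, was called.

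**Figure D4:**
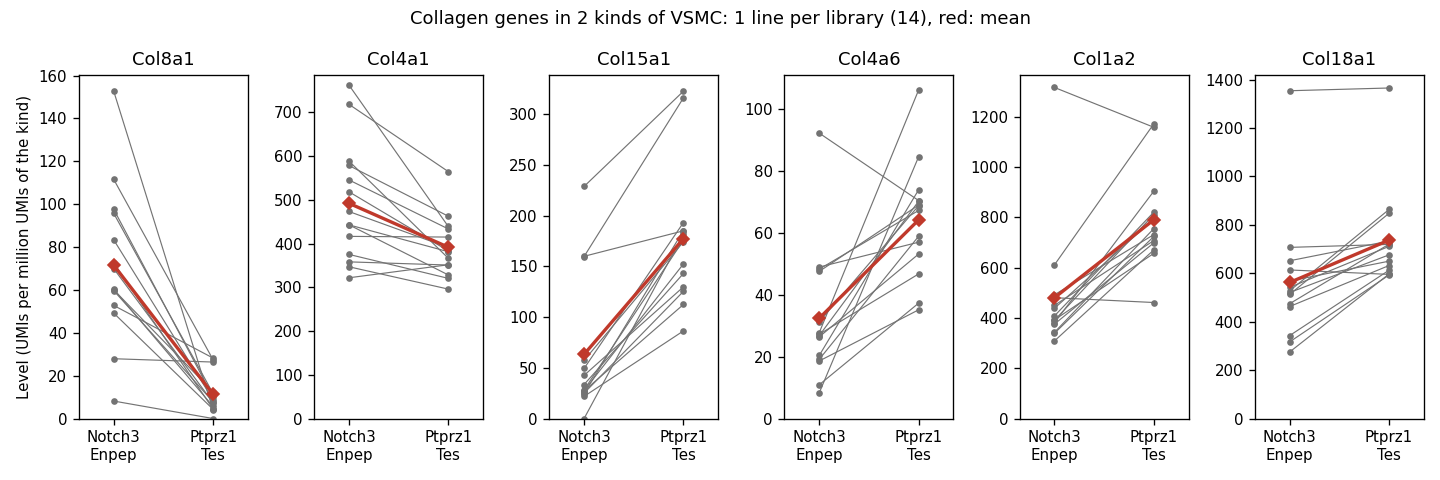
Levels of 6 collagen genes in UMIs per 1000000 UMIs of the kind (linear axes from 0), in VSMCs rich in Notch3 and Enpep and in VSMCs rich in Ptprz1 and Tes, with 1 grey line per library (14) and the mean in red. Col8a1 is higher in the Notch3 and Enpep cells, and Col15a1 lower, in 14 of 14 libraries.

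Genotype was compared within each class by an edgeR fit with a term for batch. Batch 5 held Smad3SmKO libraries only (replicates 5 and 7), so its term takes them up. The 18-week log2 differences therefore rest on the other 18-week libraries. No member was called at either time in any class. In VSMCs 24 members were tested among 11852 genes, of which 0% were called at 10 weeks and 0.0422% at 18 weeks. At an unadjusted p under 0.05 there was 1 member at 10 weeks and 0 at 18 weeks, and DESeq2 also called 0 and 0. In counts simulated at 1 assumed spread, without batch effects, a 2-fold change was called for 20% of genes and a 4-fold change for 87% at 18 weeks in VSMCs. At that spread most 2-fold changes were not called. It was not taken from the collagens, so how large a change these libraries would miss is not known.

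At 10 weeks, 20 of the 24 VSMC members had a level below that of Smad3+/+ (median −0.26, all genes −0.01), beside 51.4% of all genes, and none of these passed the test. In the same VSMCs the summed level of 8 fibroblast markers was at 1270 and 1586 CPM in Smad3+/+ and 1083 and 1096 in libraries labelled Smad3SmKO, and that of 10 dissociation-response genes at 3099 and 4772 against 1893 and 2151, both without overlap. Their part in these values was not tested. Col1a2 was at 1178 and 782 CPM in Smad3+/+ and 684 and 595 in libraries labelled Smad3SmKO, without overlap (−0.58 ± 0.25, adjusted p = 1, edgeR). Col3a1 was at 1338 and 1272 against 942 and 739 (−0.62 ± 0.30), also without overlap. Col15a1 was at 333 and 139 against 171 and 133 (−0.58 ± 0.31), Col5a2 at 189 and 157 against 141 and 109 (−0.44 ± 0.28), and Col4a4 at 6.57 and 4.49 against 10.1 and 7.03 (0.66 ± 0.34). The collagen share of VSMC UMIs was 0.593 ± 0.094% in Smad3+/+ and 0.447 ± 0.049% in libraries labelled Smad3SmKO (n = 2 each).

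At 18 weeks 15 of 24 members were below Smad3+/+ (median −0.09), beside 51.2% of all genes (median −0.01). The summed level of 4 pericyte markers in VSMCs averaged 233 CPM in Smad3+/+ (128.3 to 369.8) and 604 (195 to 1210) in libraries labelled Smad3SmKO, with overlap, and its part in these values was not tested. The collagen share was 0.429 ± 0.082% (n = 5) and 0.440 ± 0.164% (n = 7), the highest being replicate 7 of Smad3SmKO at 0.8005%. Col18a1 was at 579, 656 and 824 CPM (lowest, median and highest) in Smad3+/+ and 387, 616 and 1363 in libraries labelled Smad3SmKO (−0.35 ± 0.20). Col1a1 was at 313, 493.1 and 820 against 344, 427 and 1091 (−0.37 ± 0.21), and Col5a2 at 105, 138 and 159 against 80.1, 114 and 327 (−0.33 ± 0.20). Col6a2 was at 58.5, 72.6 and 130.6 against 79.6, 122 and 182 (0.37 ± 0.23), and Col4a4 at 3.77, 8.07 and 11.3 against 6.24, 7.55 and 30.3 (0.46 ± 0.32). All 5 genes overlapped between genotypes. Without the 4 libraries whose GFP went against the label, 0 members were called and the differences were −0.45 for Col18a1, −0.14 for Col1a1, −0.39 for Col5a2, 0.78 for Col6a2 and 1.04 for Col4a4. Batch 6 then held Smad3SmKO replicate 6 only, which its term takes up. These differences therefore rest on the libraries digested for 30 min. Within the 4 batches that held both genotypes, Col5a2 was lower in 4 of 4, Col1a1 and Col18a1 in 3 of 4, and Col6a2 was higher in 3 of 4, while Col4a4 was higher in 2 and lower in 2. In Smad3+/+ digestion time moved with these values: Col1a1 was at 313, 492 and 493.1 in libraries digested for 30 min and at 757 and 820 in those digested for 60 min. Both of the latter were in batch 6, so digestion and batch cannot be told apart there. Smad3SmKO replicate 6, also 60 min and batch 6, was at 393. Smad3SmKO libraries digested for 30 min were at 348 and 427 in batches 2 and 3, with a mean of 400 in batch 1. The highest, replicate 7 at 1091, was digested for 60 min, and the next highest was at 574. Replicates 5 and 7 of Smad3SmKO were in batch 5, which held no control. They count in the levels and shares above but not in the size of the log2 differences.

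The genotype effects at 10 and 18 weeks were compared in the same fit, and 0 members were called where 0.00844% of genes were. The widest gap by p was that of Col6a2, −0.45 ± 0.30 at 10 weeks and 0.37 ± 0.23 at 18 weeks (difference 0.82 ± 0.38, unadjusted p = 0.0452, adjusted p = 1, edgeR). Time and batch 4 cannot be told apart.

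**Figure D5:**
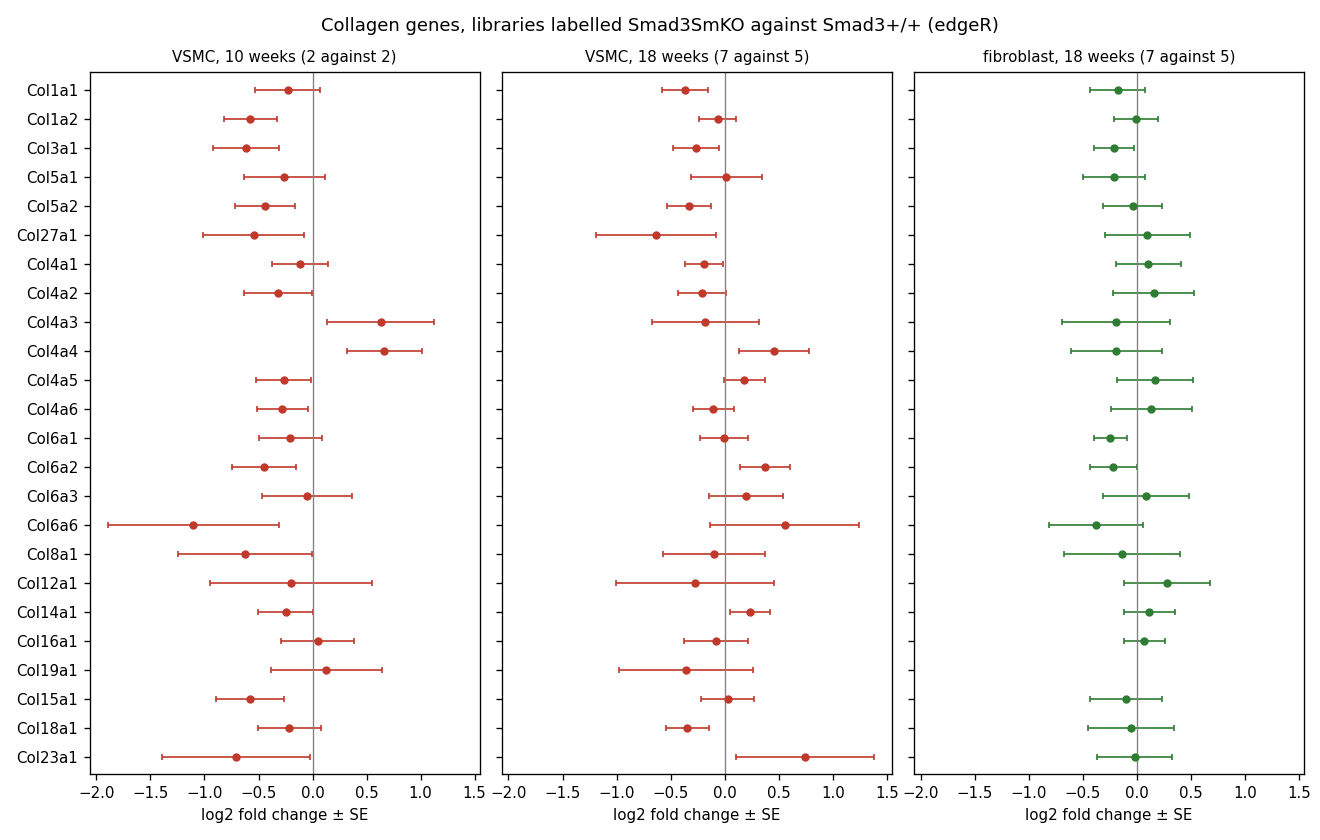
Log2 fold change ± SE (edgeR with batch) of libraries labelled Smad3SmKO against Smad3+/+ for the 24 collagen genes tested in VSMCs, at 10 weeks (2 against 2) and 18 weeks (7 against 5), with the fibroblast values at 18 weeks for those tested there. In VSMCs 20 of 24 points are below 0 at 10 weeks and 15 of 24 at 18 weeks, and none passed the test. The 18-week points do not rest on Smad3SmKO replicates 5 and 7, which the term of batch 5 takes up.

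In fibroblasts, which do not carry the deletion by design, 37 members were tested among 14626 genes and none was called (0% of genes at 10 weeks, 0% at 18 weeks, 0% for the difference between times). No member reached an unadjusted p under 0.05, and DESeq2 called 0. The 5 smallest p-values at 18 weeks belonged to Col6a1 (−0.24 ± 0.16), Col26a1 (−1.10 ± 0.72, at most 0.816 CPM), Col3a1 (−0.21 ± 0.19), Col6a2 (−0.22 ± 0.22) and Col2a1 (1.38 ± 1.39). Col6a1 was at 378, 564 and 588 CPM in Smad3+/+ and 329, 414 and 477 in libraries labelled Smad3SmKO. Without the 4 libraries with GFP against the label the differences were −0.05 for Col6a1, −0.79 for Col26a1, 0.02 for Col3a1, 0.10 for Col6a2 and −0.36 for Col2a1, and 0 members were called. These too rest on the libraries digested for 30 min. The difference of the genotype effect between VSMCs and fibroblasts at 18 weeks was called for 0 of 30 members (0% of 12302 genes). Col6a2 had the smallest p (0.66 ± 0.19, unadjusted p = 0.0043 and adjusted p = 1, edgeR).

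In endothelium by every cell of the rule, 27 members were tested and none was called (0% of 11683 genes at each time and for the difference). Without the filter on low counts 1 member was called at each time, Col6a5 (−7.57 ± 1.68, adjusted p = 0.023 at 10 weeks, and −1.47 ± 0.25, adjusted p = 2.8e-06 at 18 weeks, edgeR). Over all libraries Col6a5 had 5 UMIs in endothelial cells of 1 rule, against 21646 in fibroblasts of 1 rule. The part of cells that also met the fibroblast rule in these calls was not tested. At 18 weeks 2 members had an unadjusted p under 0.05, Col3a1 (−0.46 ± 0.20) and Col1a1 (−0.50 ± 0.22), both at an adjusted p of 0.999 by edgeR, and DESeq2 called 0. Col3a1 was at 1858, 2710 and 3146 CPM in Smad3+/+ and 1339, 1947 and 2579 in libraries labelled Smad3SmKO, with overlap. Col6a6 (−0.77 ± 0.38), Col6a1 (−0.39 ± 0.20) and Col27a1 (−0.52 ± 0.26) followed. Without the 4 libraries with GFP against the label, Col3a1 was at −0.36 and Col1a1 at −0.27 on the log2 scale. In cells of 1 rule the differences at 18 weeks were 0.23 for Col1a1 and −0.0016 for Col3a1. There 17 members were tested and none was called, with 2 below Smad3+/+ at 10 weeks and 7 at 18 weeks, against 18 of 27 at each time with every cell. Of all genes, 49.3% and 49.0% were below in cells of 1 rule, and 52.1% and 50.0% with every cell. The summed fibroblast markers in endothelium by every cell of the rule averaged 24109 CPM in Smad3+/+ (13793 to 31280) and 18382 (3350 to 28917) in libraries labelled Smad3SmKO, and their part in these values was not tested. In leukocytes 21 members were tested and none was called (0% of 9770 genes at 10 weeks, 0% at 18 weeks, 0% for the difference). The unadjusted p was under 0.05 for Col6a3 at 10 weeks (−2.03 ± 0.87) and for Col4a3 (−1.92 ± 0.79) and Col8a1 (−0.96 ± 0.43) at 18 weeks, all at adjusted p = 1 by edgeR, and DESeq2 called 0. In leukocytes of 1 rule only 7 members could be tested, none of these 3 among them, and none was called. The median difference at 18 weeks was −0.18 over the 21 members (all genes 0.002) and 0.31 over the 7 (all genes 0.005).

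The making and processing list was not called either. In VSMCs at 10 weeks 26 of its 28 tested genes were below Smad3+/+ (median −0.20) and at 18 weeks 18 of 28 (median −0.09), beside 51.4% and 51.2% of all genes. The fibroblast markers and dissociation-response genes given above for 10 weeks moved with these values too. Of the 6 receptor genes tested there, 5 and 3 were below. None passed the test at either time.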

How the data were processed

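UMI counts per gene and barcode were used as deposited. The authors had them from Cell Ranger (version 6 per the labels, another in the file headers) on mm10 plus a GFP sequence, not normalized. Seurat 4 is listed in the submitters' processing notes. The study's limits were applied to barcodes: over 600 and below 6000 genes, over 2000 and below 50000 UMIs, mitochondrial share below 25%. Doublets were not called beyond these limits. UMIs were summed by library and class (at least 10 cells) and fitted in edgeR 4.0.16 (R 4.3.3, filterByExpr, quasi-likelihood), with Benjamini-Hochberg adjustment over all genes tested. Genotype fits used 4 groups and batch, and class fits the library. SE is the log2 change over the root of F. DESeq2 1.42.0 was an alternative. Scripts were tested on simulated counts. Sums and plots used Python 3.11.15 and matplotlib 3.10.9. Values per library were given for the 2 members of each structural group with the highest mean level, and genotype values for the 5 smallest p-values per fit. Members and lists were chosen with earlier results of these data known. Library totals (12539539 to 52843031 UMIs) bound the precision.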

Additional observations from a re-analysis of the deposited data

Results flagged for a closer look

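Of 36 gene, class and genotype groups examined for a library far from the rest of its group, 8 held one. The groups share libraries and are not independent, so this count is not set against a chance rate. The library labelled Smad3SmKO, 18 weeks, replicate 7, gave 6 of them. In its VSMCs Col1a1 was at 1091 CPM (next highest 574), Col1a2 at 1253 (685), Col3a1 at 1576 (812), Col5a2 at 327.4 (148.5) and Col18a1 at 1363 (728), and in its fibroblasts Col2a1 was at 20.82 (1.76). The same library held 394 VSMCs and 196 fibroblasts, with no control in its batch. VSMCs of replicate 1 of that group had Col4a4 at 30.3 CPM (next 11.95), and fibroblasts of Smad3+/+ 18-week replicate 1 had Col2a1 at 2.195 CPM (next 0.0583). None of these genes was called for genotype.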

How the results depend on the processing

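Values are log2 differences. Mice of the 2 genotypes could not be paired, as the labels name no pairs and the replicate numbers used here follow accession order. Batch is a term of the genotype fits. Library is a term of the class fits, which therefore compare classes within libraries. For genotype, 0 members were called under every alternative except in endothelium without the filter on low counts, where 1, Col6a5, was called at 10 weeks and 1, also Col6a5, at 18 weeks. Without a batch term, Col18a1 (0.032) and Col5a2 (0.182) in VSMCs and Col3a1 in fibroblasts (0.0613) turned positive at 18 weeks. That fit also takes the Smad3SmKO libraries of batch 5 into the difference. With 60 min digestions only, VSMC Col6a2 (−0.433) and Col4a4 (−0.232) turned negative, and with 30 min only fibroblast Col3a1 (0.00369) and Col6a2 (0.0903) turned positive. The 60 min difference rests on Smad3SmKO replicate 6 alone, since the term of batch 5 takes up the others. Without the libraries whose GFP went against the label, fibroblast Col3a1 was 0.0165, Col6a2 0.103 and Col2a1 −0.364. Batch 6 then held Smad3SmKO replicate 6 only, which its term takes up. These differences therefore also rest on the libraries digested for 30 min. Leaving out each library in turn gave VSMC Col15a1 at 10 weeks −0.978 to 0.0187 (without Smad3+/+ replicate 1), and at 18 weeks fibroblast Col3a1 −0.398 to 0.0127, Col6a2 −0.444 to 0.0991 and Col2a1 −0.387 to 4.48, where the turns came without Smad3SmKO replicate 6. Without Smad3SmKO replicate 6 batch 6 held Smad3+/+ libraries only, so those values rest on the 30 min libraries too. They are not a check separate from the 30 min and GFP settings. In endothelium with cells of 1 rule, Col1a1 was 0.228. Endothelium against fibroblasts turned for Col4a6 with library size scaling (0.0767) and the 2 classes alone (0.00494), and ranged from −0.139 to 0.015 (without Smad3SmKO 10-week replicate 1) over left-out libraries. Endothelium against VSMCs with cells of 1 rule turned to −2.03 for Col1a1, −2.24 for Col1a2, −1.97 for Col3a1, 0.371 for Col4a1, 0.0882 for Col4a2, −0.0321 for Col4a3, −0.859 for Col4a4, −1.76 for Col5a1, −1.25 for Col5a2, −1.91 for Col6a1, −2.38 for Col6a2, −2.47 for Col6a3, −0.0341 for Col12a1, −3.81 for Col14a1, −0.435 for Col15a1, −1.56 for Col16a1 and −1.72 for Col27a1. Col4a1 also turned with library size scaling (0.0467) and doubled class thresholds (0.00355), which took the calls to 14 and Col6a3 to −0.385. Over all alternatives, 25 to 40 members were called in VSMCs against fibroblasts, 15 to 28 in endothelium against fibroblasts and 26 to 35 in leukocytes against fibroblasts. In the main fits 8496, 4370 and 9280 of 12059 genes were called in these comparisons. There were 7827 in endothelium against VSMCs and 1476 of 5719 between the VSMC kinds. Shares of all genes under the alternatives are not given, so the counts of members describe the settings and not the collagens. Between the VSMC kinds 20 were called with no filter and 1, Col8a1, with at least 50 cells of each kind, where Col5a2 was 0.0525. Only Smad3SmKO 18-week replicates 5 and 7 held that many cells of each kind. Leaving out each library gave 26 to 27, 22, 26 to 28 and 12 to 15 for these comparisons, 23 to 25 for endothelium against VSMCs and 0 for genotype. The cause of each turn was not tested.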
